A study of Mus musculus with 12 samples.

Results

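The 81 genes described here encode heat shock proteins and chaperonins. They are the rows of the deposited mouse table whose symbols belong to the Hspa, Hspb, Hspd, Hspe, Hsph, Hsp90, Dnaja, Dnajb, Dnajc and Cct series, pseudogenes left out, and they make up 81 of the 21937 genes listed. The sequenced RNA came from light membranes of mouse brains, a fraction rich in myelin, the lipid sheath that oligodendrocytes wrap around axons. All mice were male, wild type and of the inbred strain c57Bl6/N, and the labels name no transgene, mutation or treatment for any group. Brains were taken 18 days (P18) or 75 days (P75) after birth, or at 6 or 24 months of age, and each of the 4 ages has 3 samples.

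Heat shock proteins bind unfolded stretches of other proteins and release them for another attempt at folding. HSP70 proteins clamp short hydrophobic segments with the energy of ATP, J proteins (DNAJA, DNAJB and DNAJC) deliver clients to them and start the ATP cycle, and HSP110 proteins exchange the nucleotide so that the client is let go. HSP90 acts later, on nearly folded clients such as kinases and steroid receptors. The chaperonins HSP60 with HSP10 in mitochondria and CCT in the cytosol are barrels that enclose a client, while small heat shock proteins hold aggregating clients without ATP. Heat and other proteotoxic stress raise many of these genes through heat shock factor 1, which binds the heat shock element. Unfolded protein in the endoplasmic reticulum (ER) raises BiP and its partners through ATF6 and XBP1, which act at the ER stress element. In oligodendrocytes the ER carries the load of membrane protein synthesis for the sheath.

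Promoter sequences are shown first for the members that hold one of these 2 elements, because the ER members rose together with age, and because Hspd1 and Hspe1 share a start region but had opposite differences at 6 months. The sequences are from RefSeq on the build GRCm38.p6 and cover 250 bases before to 50 after a gene's start, for 32851 promoters in all. Of the 81 genes, 66 were matched, with 85 promoters. The ER stress element was searched on both strands as CCAAT followed, after any 9 bases, by CCACG. It was found in 39 of all promoters (0.119%) and in 3 of the 85 (3.53%), those of Hspa5, Hsp90b1 and Dnajc3. Each of these is given below from 250 bases to 1 base before the start, on the gene's strand, with the element in capitals.
Hspa5, chr2:34771840-34772089, plus strand: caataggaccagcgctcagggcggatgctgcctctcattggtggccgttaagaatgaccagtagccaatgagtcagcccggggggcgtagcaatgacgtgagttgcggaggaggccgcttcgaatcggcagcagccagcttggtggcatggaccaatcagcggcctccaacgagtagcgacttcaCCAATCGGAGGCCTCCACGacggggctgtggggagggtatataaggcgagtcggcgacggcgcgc
Hsp90b1, chr10:86705445-86705694, minus strand: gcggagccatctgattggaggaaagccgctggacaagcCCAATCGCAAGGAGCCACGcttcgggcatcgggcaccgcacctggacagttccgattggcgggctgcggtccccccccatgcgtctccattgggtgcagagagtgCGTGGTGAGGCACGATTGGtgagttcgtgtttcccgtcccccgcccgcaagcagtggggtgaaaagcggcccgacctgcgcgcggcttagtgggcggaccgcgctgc
Dnajc3, chr14:118937682-118937931, plus strand: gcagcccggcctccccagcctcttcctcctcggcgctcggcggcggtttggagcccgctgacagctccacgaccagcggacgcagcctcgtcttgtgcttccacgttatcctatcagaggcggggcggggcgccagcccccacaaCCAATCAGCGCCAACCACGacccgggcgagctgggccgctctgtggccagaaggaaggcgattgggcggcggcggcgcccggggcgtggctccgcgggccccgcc
The element began 65 bases before the start in Hspa5 and 105 bases before it in Dnajc3. Hsp90b1 held 2 copies, the one 212 bases before the start on the gene's strand and the one 107 bases before it on the opposite strand.

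The heat shock element was searched as GAA, TTC and GAA with any 2 bases between neighbours, and as its reverse complement, TTC, GAA and TTC, whose matches can overlap those of the first. It was found in 198 of all promoters (0.603%) and in 6 of the 85 (7.06%), which belong to 4 genes, Dnajb6, Hspd1, Hspe1 and Hsph1. Dnajb6 and Hsph1 are counted with more than 1 promoter each, and Hspd1 and Hspe1 hold the same matches in a shared region. The 6 promoters thus do not stand for 6 separate loci. The Hsph1 match lay after the start and is not shown. Hspd1 and Hspe1 are transcribed away from each other, and the 215 bases between their starts are given on the plus strand, the strand of Hspe1, followed by the 100 bases before the Dnajb6 start. Capitals mark the elements.
Hspd1 and Hspe1, chr1:55087933-55088147, plus strand: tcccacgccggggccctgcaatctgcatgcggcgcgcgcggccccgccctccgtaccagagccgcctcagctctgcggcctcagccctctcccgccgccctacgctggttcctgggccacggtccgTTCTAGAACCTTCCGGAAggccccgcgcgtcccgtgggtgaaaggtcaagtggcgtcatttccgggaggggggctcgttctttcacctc
Dnajb6, chr5:29735798-29735897, plus strand: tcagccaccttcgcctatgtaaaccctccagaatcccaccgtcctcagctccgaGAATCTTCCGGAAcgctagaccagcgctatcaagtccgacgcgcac
The capitals between Hspd1 and Hspe1 cover 2 overlapping matches that begin 89 and 84 bases before the Hspe1 start. These matches describe the letters only. For 15 genes, among them Hspa8, Hsp90aa1, Hsp90ab1, Hspa9 and Hspa13, no promoter was used here.

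The samples held 20299052 to 27214385 reads each, and between 16949 and 17261 genes were detected in a sample. Values are read counts divided by a size factor per sample and are called normalized counts. Differences between ages are given as the difference of the mean log2(normalized count + 1), later age minus earlier age, with its standard error, and a difference passed when limma's adjusted p was below 0.05. Nothing in the labels says that the samples came from separate animals, so a p-value here reflects spread that may be technical. Each call was recomputed in 22 alternative analyses, which include leaving out each sample in turn and removing each sample's trend of values with exonic length (the length correction). Consecutive comparisons share the samples of an age and are not independent of each other. The myelin genes Mbp and Mobp, which mark the labelled fraction, were at or above 72930 normalized counts in every sample. Neuronal, astrocyte, microglial, endothelial and choroid plexus markers were also present, with none of them at 0 in any sample. In a bulk fraction, fewer cells of a type, less RNA per cell and less carry-over into the fraction cannot be told apart.

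Together the 81 genes took 1.1% ± 0.122 (SD, n = 3) of all normalized counts in the P18 samples and 1.15% ± 0.0671 in those of P75. The share was 1.38% ± 0.109 for the 6 months samples and 1.23% ± 0.19 for the 24 months samples. Their summed counts were between 262381 and 275249 in the P18 samples, between 252021 and 275152 in those of P75, between 302002 and 324659 in those of 6 months and between 249881 and 323935 in those of 24 months. All 3 samples at 6 months lay above all samples at P18 and P75, while the 24 months samples spanned nearly the whole range. Hspa8, Hsp90aa1 and Hsp90ab1 alone held 41% to 48.7% of the sum in each sample. Per kilobase of exon, the leading genes by their mean over the 12 samples were Hspa8 at 19717 normalized counts, Hsp90ab1 at 15285, Hsp90aa1 at 12557, Hspe1 at 4122 and Hsp90b1 at 3736, followed by the CCT subunits Cct8 at 2957, Cct5 at 2845 and Cct7 at 2784. The cytosolic Hspa8, Hsp90ab1 and Hsp90aa1 led, while the stress-inducible Hspa1b at 75.9 and Hspa1a at 62.4 normalized counts per kilobase ranked 61 and 63 of the 81. The ranks of Hspa1a and Hspa1b are uncertain, because the counting may have divided or discarded reads that fit both.

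Of the 81 genes, 72 reached a normalized count of 10 in at least 3 samples and were tested. The other 9 (Cct6b, Cct8l1, Dnajb7, Dnajb8, Dnajc5b, Dnajc5g, Dnajc22, Hspb7 and Hspb9) stayed at or below 11.1 in every sample, and Dnajb8 and Dnajc5g were at 0 in all 12. Between P18 and P75, 10 of the 72 rose (13.9%) and 11 fell (15.3%), beside 21.7% and 18.7% of all 14987 genes tested (40.4% called). Between P75 and 6 months, 26 rose (36.1%) and 17 fell (23.6%), beside 27.1% and 25.4% (52.4% called). Between 6 months and 24 months, 6 rose (8.33%) and 7 fell (9.72%), beside 10.8% and 8.34% (19.2% called). Over the whole span from P18 to 24 months, 21 rose (29.2%) and 23 fell (31.9%), beside 32% and 30.5% (62.5% called). These shares are near or below those of all genes except for rises between P75 and 6 months, where the median log2 difference was 0.12 over the 72 genes and 0.0029 over all genes. Across the 4 ages, 54 of the 72 differed by the moderated F test, beside 77.4% of all genes. P18 held the highest mean for 19 of these 54, P75 for 8, the 6 months samples for 15 and the 24 months samples for 12. This split was not counted over all genes, so it cannot be read as particular to the chaperone genes.

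Several counts moved by more than 1.5 times when a library was left out. The 10 rises to P75 became 6 without P75 replicate 2 or P75 replicate 3, and the 11 falls became 7 without P18 replicate 1 or P75 replicate 1. From 6 months to 24 months, the 6 rises became 11 without P18 replicate 3, 10 without 24 months replicate 1 and 3 without 6 months replicate 1. The 7 falls became 11 without P18 replicate 3 and 4 without 24 months replicate 1, 24 months replicate 2 or any of the 3 samples at 6 months.

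The ER members are the 3 ER chaperones BiP (Hspa5), GRP94 (Hsp90b1) and Stch (Hspa13) and the 9 J proteins assigned to the ER. All 12 rose between P18 and 24 months and none fell, with a median log2 difference of 1.21. Over all genes tested 32% rose over the same span. In single steps, 6 rose (50%) and none fell to P75, 11 rose (91.7%) and none fell to 6 months, and 1 rose (8.33%) and 1 fell to 24 months, beside rises of 21.7%, 27.1% and 10.8% of all genes, with medians of 0.30, 0.56 and 0.17. The count of rises to 24 months was 4 without P18 replicate 3 or 24 months replicate 1, 3 with TMM size factors, in edgeR and in DESeq2, and 2 without P75 replicate 3 or with the length correction. Their summed counts were between 12589 and 16407 in the P18 samples, between 19600 and 22672 in those of P75, between 28792 and 33896 in those of 6 months and between 29682 and 46285 in those of 24 months, so that the first 3 ages did not overlap and the last 2 did. The 12 genes were grouped after their values had been seen, by the compartment their products are known for. The group may not hold every J protein of the ER. Dnajc14, placed among the other DNAJC genes, differed by 0.023 ± 0.16 (SE, adjusted p = 0.91) over the whole span.

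Hspa5 encodes BiP, the HSP70 of the ER lumen, and had normalized counts of 5082, 4461 and 2979 at P18, 3370, 3853 and 4388 at P75, 9213, 7992 and 7813 at 6 months, and 6060, 11820 and 14638 at 24 months. The 3 samples at 6 months stood above all samples at P18 and P75, and the 24 months samples ran from below to far above them. Its log2 difference was -0.082 ± 0.24 (SE, adjusted p = 0.815) at P75 against P18, 1.11 ± 0.24 (SE, adjusted p = 0.00114) at 6 months against P75, 0.29 ± 0.24 (SE, adjusted p = 0.424) at 24 months against 6 months and 1.32 ± 0.24 (SE, adjusted p = 0.000173) at 24 months against P18. Of the consecutive steps of Hspa5, only that between P75 and 6 months passed in the main fit. The last step passed only when the 24 months replicate 1 was left out (log2 difference 0.66, adjusted p = 0.0357). A further rise after 6 months is thus neither shown nor excluded. Hsp90b1 encodes GRP94, the HSP90 of the ER, which folds integrins and Toll-like receptors, and had 5865, 5903 and 4439 at P18, 9115, 9261 and 10548 at P75, 12823, 10757 and 11031 at 6 months, and 12142, 16058 and 18716 at 24 months. Every P75 sample exceeded every P18 sample, and the 24 months samples reached the highest values. Hsp90b1 rose by a log2 difference of 0.84 ± 0.15 (SE, adjusted p = 0.000284) to P75 and of 1.52 ± 0.15 (SE, adjusted p = 1.69e-07) over the whole span, while the step to 6 months was 0.26 ± 0.15 (SE, adjusted p = 0.152) and the step to 24 months 0.42 ± 0.15 (SE, adjusted p = 0.0548). The last of these passed in 5 of 22 alternative analyses, which were TMM size factors, edgeR, DESeq2 and the fits without P18 replicate 3 or 24 months replicate 1 (0.59, adjusted p = 0.0193). Hspa13, a shortened HSP70 relative, had 422, 409 and 394 at P18, 625, 531 and 751 at P75, 1300, 991 and 1147 at 6 months, and 1125, 1326 and 1252 at 24 months. Its P18, P75 and 6 months samples did not overlap, and its log2 differences were 0.62 ± 0.12 (SE, adjusted p = 0.000707), 0.85 ± 0.12 (SE, adjusted p = 2.6e-05) and 1.59 ± 0.12 (SE, adjusted p = 1.22e-08) for P75 against P18, 6 months against P75 and 24 months against P18.

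**Figure D1:**
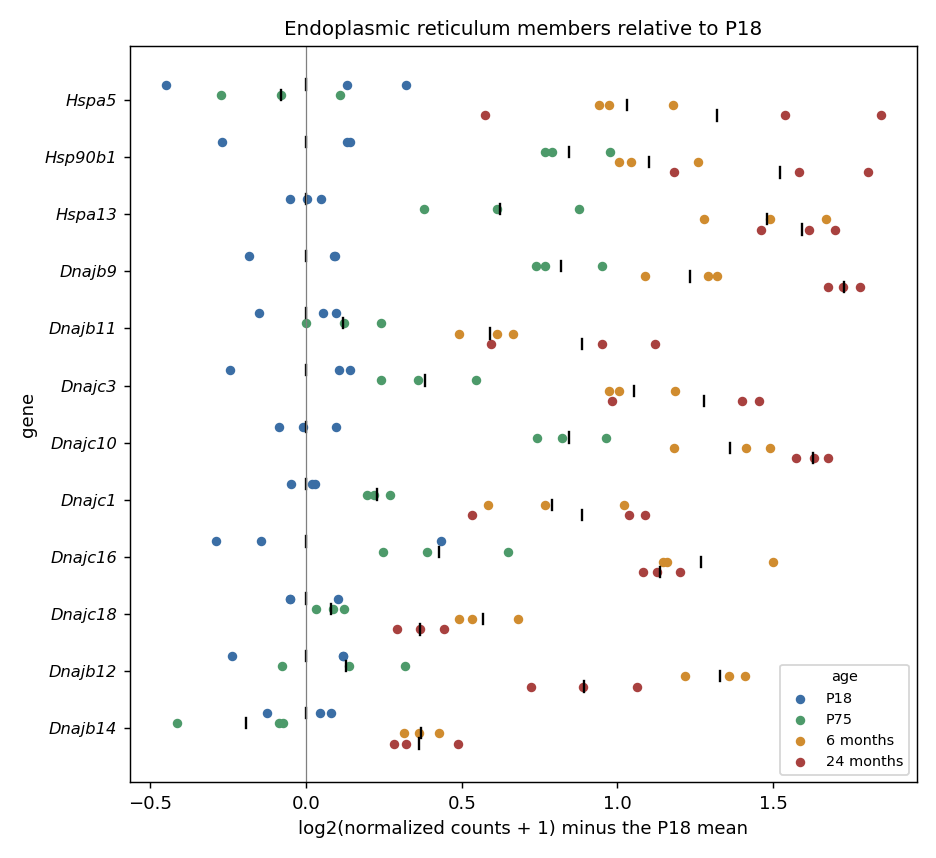
The 12 ER members in each of the 12 samples, as log2(normalized count + 1) minus the P18 mean of the gene (x axis), one row per gene. Points are samples, coloured by age, and black bars are age means. At 24 months the points of Hspa13, Dnajb9 and Dnajc10 lie well to the right of P18, while Hspa5 spreads widely at that age.

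Among the J proteins of the ER, Dnajb9 (ERdj4, which restrains the sensor IRE1) had normalized counts of 777, 776 and 643 at P18, 1218, 1241 and 1409 at P75, 1820, 1553 and 1785 at 6 months, and 2334, 2504 and 2412 at 24 months. The 4 ages did not overlap at any step, and the gene rose at each: 0.82, 0.41 and 0.49 in log2 difference, with adjusted p of 9.42e-06, 0.00178 and 0.00342. No other member rose at all 3 steps. Dnajc10 (ERdj5, a disulfide reductase) had 793, 835 and 899 at P18, 1488, 1408 and 1642 at P75, 2362, 1907 and 2242 at 6 months, and 2688, 2608 and 2507 at 24 months. The 4 ages did not overlap for Dnajc10 either, and the log2 difference over the whole span was 1.63 ± 0.093 (SE, adjusted p = 6.69e-10). The step from 6 months to 24 months, 0.27 ± 0.093 (SE, adjusted p = 0.054), missed the threshold. It passed in 7 alternative analyses, among them edgeR (adjusted p = 0.0431) and DESeq2 (adjusted p = 0.0409) on the recovered reads and the fits without P18 replicate 3 or P75 replicate 3. Dnajc3 (p58IPK, a BiP cofactor), whose promoter holds an ER stress element, had 769, 750.2 and 589 at P18, 825, 896 and 1019 at P75, 1587, 1371 and 1401 at 6 months, and 1380, 1913 and 1841 at 24 months. It was lowest at P18 and rose at 6 months by 0.67 ± 0.13 (SE, adjusted p = 0.000418) and over the whole span by 1.28 ± 0.13 (SE, adjusted p = 3.04e-07). Its smaller rise to P75 was 0.38 ± 0.13 (SE, adjusted p = 0.0268). The Dnajc3 call was lost in 4 of 22 alternative analyses (without P18 replicate 3, P75 replicates 2 or 3 and with both a length trend removed and a replicate block, with an adjusted p of up to 0.117).

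Dnajb11 (ERdj3, which delivers unfolded clients to BiP) had normalized counts of 1055, 1023 and 888 at P18, 985, 1164 and 1073 at P75, 1563, 1385 and 1509 at 6 months, and 1487, 1906 and 2143 at 24 months, and P18 and P75 overlapped. It rose by a log2 difference of 0.47 ± 0.12 (SE, adjusted p = 0.00319) at 6 months. A membrane-bound J protein, Dnajb12, was at 147 to 217 in all samples at P18 and P75, at 463, 406 and 447 at 6 months and at 323, 288 and 364 at 24 months. It rose by 1.20 ± 0.13 (SE, adjusted p = 2.69e-06) and then fell by 0.44 ± 0.13 (SE, adjusted p = 0.0319), the only fall among the 12. The Dnajb12 call was lost in 5 of 22 alternative analyses (without 6 months replicates 1, 2 or 3, 24 months replicates 1 or 2, with an adjusted p of up to 0.138). Dnajc1 rose by 0.56 at 6 months, Dnajc16 by 0.84, Dnajc18 by 0.49 and Dnajb14 by 0.56, all as log2 differences with adjusted p between 0.000126 and 0.00318. Over the whole span Dnajc16 stood 1.14 higher, Dnajb11, Dnajb12 and Dnajc1 each 0.89, Dnajc18 0.37 (0.23 with the length trend removed) and Dnajb14 0.36. The Dnajb14 call over the whole span was lost in 8 of 22 alternative analyses (without P18 replicates 2 or 3, 24 months replicate 3, with no filter on low values, after quantile normalization, in DESeq2 and with a length trend removed, with or without a replicate block, with an adjusted p of up to 0.49). Dnajc16 also rose to P75, by 0.43, but this call was lost in 17 of 22 alternative analyses, among them the fits without P18 replicates 1 or 2, P75 replicates 1 or 2, 6 months replicates 2 or 3, 24 months replicates 1, 2 or 3, with an adjusted p of up to 0.2.

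Other genes of ER folding, outside the 81, were counted from a list of 20. To P75 8 rose and none fell, to 6 months 14 rose and 1 fell, to 24 months 3 rose and none fell, and over the whole span 16 rose and 1 fell. Rises were 40%, 70%, 15% and 80% of the list, beside 21.7%, 27.1%, 10.8% and 32% of all genes tested. Hyou1, the nucleotide exchange factor of BiP, had normalized counts of 608, 672 and 569.5 at P18, 629, 697 and 574 at P75, 1868, 1570 and 1544 at 6 months, and 1196, 1625 and 2036 at 24 months. Like Hspa5 it stood apart only from 6 months on, and its log2 difference at that step was 1.39 ± 0.15 (SE, adjusted p = 1.85e-06). Ero1l, the oxidase that feeds disulfide formation, differed by 1.43 ± 0.13 (SE, adjusted p = 5.65e-07) at the same step, and the transcription factor Xbp1 by 1.46 ± 0.18 (SE, adjusted p = 7.49e-06). Canx, the membrane lectin calnexin, was 1.35 ± 0.13 (SE, adjusted p = 1.26e-07) higher at 24 months than at P18. Against this direction, Atf4 was -0.32 ± 0.093 (SE, adjusted p = 0.00642) at 24 months against P18 and Ddit3 -0.61 ± 0.14 (SE, adjusted p = 0.00192) at 6 months against P75, both factors of the integrated stress response. The Ddit3 call was lost in 2 of 22 alternative analyses (with a length trend removed, with or without a replicate block, with an adjusted p of up to 0.888). Cell type markers also moved between these ages. Of 10 oligodendrocyte markers, 7 fell to P75 (70%, beside 18.7% of all genes), with a median log2 difference of -1.12. Over the span 6 of these markers fell (60%, beside 30.5%), with a median of -1.21, and none was higher in either comparison. Their share of all normalized counts was 17.2% ± 6.05 (SD, n = 3) at P18, 6.61% ± 1.35 at P75, 7.54% ± 2.02 in the 6 months samples and 7.53% ± 1.12 in the 24 months samples. In the opposite direction, 8 of 8 microglial markers rose between P18 and 24 months, beside 32% of all genes. Their summed counts were between 5833 and 6491 in the P18 samples and between 8125 and 8952 in those of P75. They were between 9728 and 11218 in the 6 months samples and between 14516 and 17905 in the 24 months samples. Of 6 choroid plexus and ependymal markers 4 rose and 2 fell over the span, beside 32% and 30.5% of all genes. Those that rose were Ttr, Folr1, Kl and Aqp1, and those that fell were Foxj1 and Ccdc153. The sums of all 6 were 12605 to 14741, 23440 to 28868, 27320 to 31642 and 42459 to 47109 in the same order, most of it from Ttr. The part of these cells in the ER result was not tested.

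The most abundant cytosolic genes passed at few steps. Hspa8, the constitutive HSP70 that also uncoats clathrin vesicles, had normalized counts of 41889, 43030 and 51911 at P18, 40357, 49119 and 34605 at P75, 61642, 57903 and 52639 at 6 months, and 33261, 44928 and 55145 at 24 months. The 6 months samples were above all others except the highest at 24 months, and P18 and P75 overlapped. The log2 difference was -0.15 ± 0.18 (SE, adjusted p = 0.549) at P75 and 0.48 ± 0.18 (SE, adjusted p = 0.0361) at 6 months. The rise at 6 months was lost in 6 of 22 alternative analyses (without P75 replicates 1 or 3, 6 months replicates 1 or 2, with no filter on low values and after quantile normalization, with an adjusted p of up to 0.154). The 24 months samples ranged from the lowest of all 12 to above 1 of the 6 months samples, and the difference from 6 months was -0.40 ± 0.18 (SE, adjusted p = 0.138) and from P18 -0.061 ± 0.18 (SE, adjusted p = 0.79).

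Hsp90aa1, the inducible cytosolic HSP90, had normalized counts of 36877, 35124 and 36676 at P18, 39065, 39396 and 40084 at P75, 51678, 46671 and 48180 at 6 months, and 41190, 41730 and 52802 at 24 months. Its P18 samples were the lowest, its P75 samples next, and 6 months and 24 months overlapped. The consecutive steps were 0.13 ± 0.13 (SE, adjusted p = 0.475), 0.30 ± 0.13 (SE, adjusted p = 0.0628) and -0.12 ± 0.13 (SE, adjusted p = 0.559), and the difference over the whole span was 0.31 ± 0.13 (SE, adjusted p = 0.0495). That last call was lost in 16 of 22 alternative analyses, among them the fits without P18 replicates 1, 2 or 3, P75 replicates 1, 2 or 3, 6 months replicates 2 or 3, 24 months replicates 2 or 3, with an adjusted p of up to 0.25. Hsp90ab1, its constitutive paralog, had 38429, 39814 and 42777 at P18, 34816, 39300 and 28747 at P75, 43632, 45969 and 39910 at 6 months, and 33045, 34857 and 40907 at 24 months. All ages overlapped with at least 1 other, and its log2 differences of -0.24, 0.34 and -0.25 did not pass (adjusted p = 0.186, 0.0543 and 0.218).

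All 3 HSP110 genes, which serve HSP70 as nucleotide exchange factors, rose between P75 and 6 months, beside 27.1% of all genes. Hspa4 had normalized counts of 4455, 4525 and 4220 at P18, 4202, 4333 and 4060 at P75, 6279, 5662 and 5668 at 6 months, and 4049, 4287 and 4683 at 24 months. Only the 6 months samples stood out, and they overlapped no other age. Hspa4 rose by 0.48 ± 0.083 (SE, adjusted p = 0.000163) and fell by 0.44 ± 0.083 (SE, adjusted p = 0.00313) at 24 months, which left it -0.022 from P18 (adjusted p = 0.834). Hsph1 had 6536, 6244 and 4559 at P18, 5578, 5483 and 6227 at P75, 8030, 7397 and 7783 at 6 months, and 5528, 6798 and 8563 at 24 months and rose by 0.43 ± 0.15 (SE, adjusted p = 0.0216) at 6 months. The Hsph1 call was lost in 6 of 22 alternative analyses (without P75 replicates 1 or 2, 6 months replicates 1 or 3 and with a length trend removed, with or without a replicate block, with an adjusted p of up to 0.11). Hspa4l rose by 0.32 ± 0.12 (SE, adjusted p = 0.0413) at that step and was 0.42 ± 0.12 (SE, adjusted p = 0.00789) higher at 24 months than at P18. The first of these calls was lost in 10 of 22 alternative analyses, among them the fits without P75 replicates 1 or 2, 6 months replicates 1 or 3, 24 months replicate 2, with an adjusted p of up to 0.365. The second was lost in 3 of 22 alternative analyses (without 24 months replicate 3 and with a length trend removed, with or without a replicate block, with an adjusted p of up to 0.163).

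The stress-inducible pair Hspa1a and Hspa1b encode nearly the same HSP70 protein, and the counting may have divided or discarded reads that fit both, so their levels are uncertain. Hspa1a had normalized counts of 187, 116 and 114 at P18, 182, 222 and 213 at P75, 132, 154 and 184 at 6 months, and 156, 211 and 352 at 24 months. Hspa1b had 419.5, 224 and 87.4 at P18, 190.4, 228 and 246 at P75, 105, 117 and 153 at 6 months, and 131, 276 and 376 at 24 months. Within P18 Hspa1b spread from 87.4 to 419.5, and within 24 months both genes were lowest in replicate 1 and highest in replicate 3. Hspa1b passed at no step, with log2 differences of 0.13, -0.83 and 0.95 (adjusted p = 0.834, 0.103 and 0.118). Hspa1a was 0.74 ± 0.24 (SE, adjusted p = 0.0137) higher at 24 months than at P18. The Hspa1a call was lost in 3 of 22 alternative analyses (without P18 replicate 2, 24 months replicate 3 and after quantile normalization, with an adjusted p of up to 0.101). Dnajb1, the J protein that pairs with these HSP70s under stress, was likewise lowest in replicate 1 and highest in replicate 3 at 24 months, with 1591, 1469 and 1282 at P18, 959, 1084 and 1193 at P75, 1180, 1214 and 1370 at 6 months, and 831, 1111 and 1546 at 24 months. It fell by 0.42 ± 0.16 (SE, adjusted p = 0.0461) to P75. The Dnajb1 call was lost in 9 of 22 alternative analyses, among them the fits without P18 replicates 1 or 2, P75 replicates 1 or 2, 6 months replicates 1, 2 or 3, 24 months replicate 2, with an adjusted p of up to 0.159. The same order of the 24 months samples, replicate 1 lowest and replicate 3 highest, was found in 33 of the 72 tested members (45.8%) and in 28% of all genes tested, and it includes Hspa8, Hsp90aa1, Hsp90ab1, Hspa4, Hsph1, Hspa5 and Hsp90b1.

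**Figure D2:**
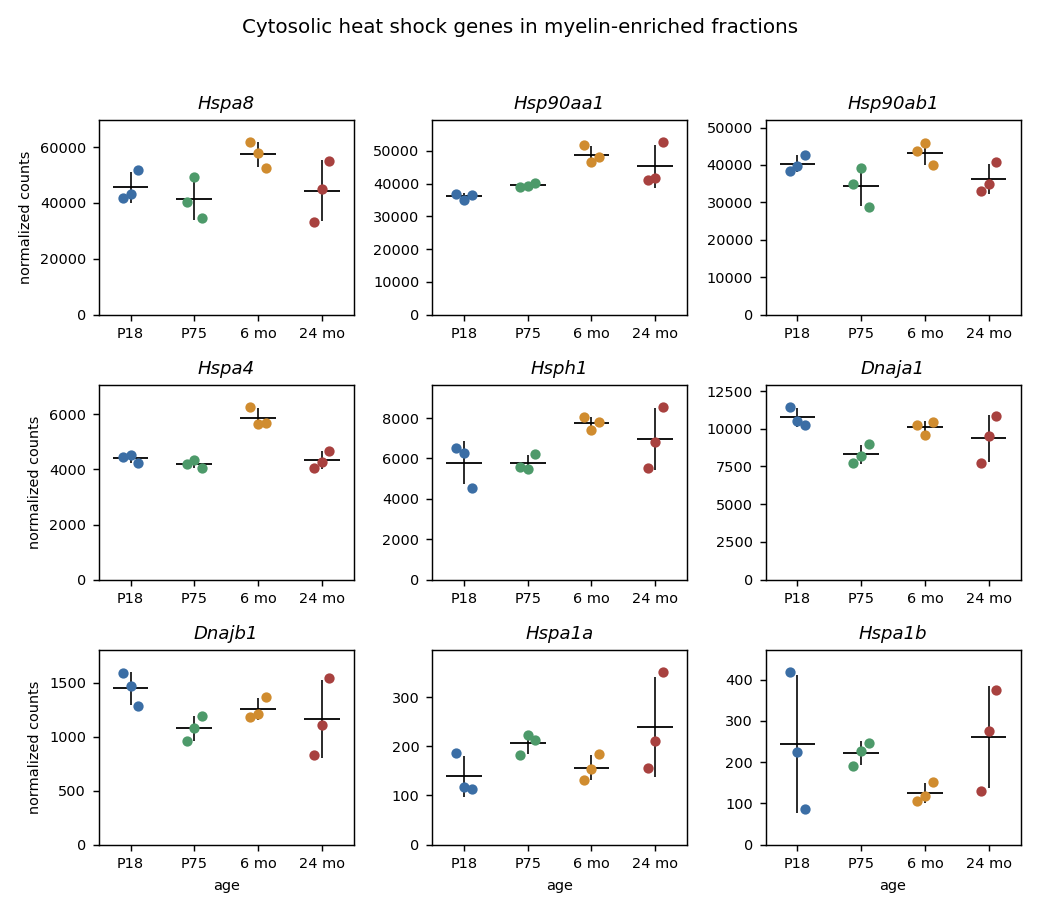
Normalized counts (y axis, from 0) of 9 cytosolic chaperone genes by age (x axis). Points are the 3 samples of each age, replicate 1 to 3 from left to right, horizontal bars the means and vertical bars the SD. Hspa4 stands out at 6 months, and for all 9 genes the 24 months replicate 1 is the lowest and replicate 3 the highest sample of that age.

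Of the other HSP70 relatives, Hspa2, best known from testis, was at 880.2 to 1372 and Hspa1l at 116 to 163 normalized counts over the 12 samples, and neither passed at any step. Hspa14, a ribosome-associated HSP70, was -0.27 ± 0.082 (SE, adjusted p = 0.00807) in log2 difference at 24 months against P18. The distant relative Hspa12a, which is enriched in brain, had 2489, 2602 and 2473 at P18, 2173, 2165 and 2267 at P75, 3212, 2756 and 2588 at 6 months, and 2047, 2133 and 2150 at 24 months. Its 6 months samples were all above those of every other age except 1 P18 sample, which exceeded 1 of them. It rose by 0.37 ± 0.084 (SE, adjusted p = 0.00161) at 6 months and fell by 0.43 ± 0.084 (SE, adjusted p = 0.00362) at 24 months. Removing the trend with transcript length left the rise at 0.22, still called. Hspa12b, known from endothelium, was at only 25.4 to 57.2 and fell by 0.66 ± 0.2 (SE, adjusted p = 0.0143) to P75. The Hspa12b call was lost in 1 of 22 alternative analyses (without P75 replicate 3, with an adjusted p of up to 0.0752).

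Of the 40 J proteins tested, 9 were those assigned to the ER above, and the others did not share a direction. Dnaja1, the main cytosolic partner of HSP70, had normalized counts of 11465, 10506 and 10269 at P18, 7763, 8180 and 9003 at P75, 10237, 9613 and 10454 at 6 months, and 7734, 9506 and 10864 at 24 months, with P75 below P18 and 6 months above P75. It fell by 0.37 ± 0.11 (SE, adjusted p = 0.0162) to P75 and rose by 0.28 ± 0.11 (SE, adjusted p = 0.0478) to 6 months. The fall was lost in 2 of 22 alternative analyses (without P18 replicate 1, P75 replicate 1, with an adjusted p of up to 0.0655). The rise was lost in 12 of 22 alternative analyses, among them the fits without P18 replicates 1 or 2, P75 replicates 1 or 2, 6 months replicates 1, 2 or 3, 24 months replicate 2, with an adjusted p of up to 0.305. Dnaja2 fell by 0.29 ± 0.095 (SE, adjusted p = 0.019) at 6 months, and Dnaja4 passed at no step. The Dnaja2 call was lost in 2 of 22 alternative analyses (without P75 replicate 3, 6 months replicate 2, with an adjusted p of up to 0.0906). Dnajb5 had 2870, 2452 and 3085 at P18, 1932, 1987 and 1463 at P75, 2606, 2610 and 2479 at 6 months, and 1702, 2021 and 2428 at 24 months. Its P75 samples lay below all samples of P18 and 6 months, with log2 differences of -0.65 ± 0.13 (SE, adjusted p = 0.000964) and 0.53 ± 0.13 (SE, adjusted p = 0.00303).

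Dnajb6, which holds back polyglutamine and other amyloid aggregates and whose promoter carries a heat shock element, had normalized counts of 7275, 6527 and 8516 at P18, 5780, 6360 and 6234 at P75, 5265, 5378 and 5268 at 6 months, and 5105, 5233 and 5064 at 24 months. It was highest at P18 in every sample, lower at P75 and lowest at 6 months and 24 months, and over the whole span it fell by 0.53 ± 0.094 (SE, adjusted p = 0.000133). The difference at P75 against P18, -0.27, also passed, but this call was lost in 4 of 22 alternative analyses (without P18 replicates 1 or 3, P75 replicate 1 and after quantile normalization, with an adjusted p of up to 0.115). Dnajb2, a neuronal J protein with ubiquitin-binding motifs, had 3452, 3668 and 2141 at P18, 3071, 3080 and 2800 at P75, 2657, 3228 and 2693 at 6 months, and 2244, 2583 and 2627 at 24 months. P18 replicate 3 was the lowest of the 12 samples and the other P18 samples the highest, and the difference over the whole span was -0.28 ± 0.15 (SE, adjusted p = 0.123). Without that sample it passed, at -0.52 (adjusted p = 0.000189). Dnajb4 rose by 0.47 ± 0.093 (SE, adjusted p = 0.000562) at 6 months. Dnajb13 and Dnajb3, both testis-enriched, were low, at 3.96 to 17.7 and 22.7 to 71.3, and Dnajb3 fell by 1.18 ± 0.22 (SE, adjusted p = 0.000297) at 6 months. The length correction left the Dnajb3 fall at -0.65.

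Among the DNAJC genes, Dnajc24 and Dnajc27 had the largest falls over the whole span. Dnajc24, a factor of diphthamide synthesis, had normalized counts of 493, 449.7 and 395 at P18, 282, 290.2 and 329 at P75, 189, 186 and 185 at 6 months, and 193, 204 and 205 at 24 months. Its first 3 ages did not overlap, and its log2 differences were -0.57 ± 0.11 (SE, adjusted p = 0.000544) to P75, -0.68 ± 0.11 (SE, adjusted p = 6.4e-05) to 6 months and -1.14 ± 0.11 (SE, adjusted p = 1.11e-07) at 24 months against P18. The fall at 6 months was lost in 2 of 22 alternative analyses (with a length trend removed, with or without a replicate block, with an adjusted p of up to 0.102). Dnajc27, a J protein with a small GTPase domain, had 2967, 3015 and 2777 at P18, 2259, 2063 and 2089 at P75, 2010, 2047 and 2025 at 6 months, and 1800, 1816 and 1671 at 24 months. P18 was above every later sample and 24 months below every earlier one, with log2 differences of -0.45 ± 0.075 (SE, adjusted p = 0.000202) to P75 and -0.73 ± 0.075 (SE, adjusted p = 3.72e-07) over the span. Dnajc7, which binds both HSP70 and HSP90, was -0.44 ± 0.1 (SE, adjusted p = 0.000994) and the ribosome-associated Dnajc2 -0.37 ± 0.077 (SE, adjusted p = 0.000557) over the span. Dnajc17 was -0.67 ± 0.15 (SE, adjusted p = 0.00101), and -0.39 after the length correction. Rises over the span were found for Dnajc12, which assists the aromatic amino acid hydroxylases, at 0.56 ± 0.11 (SE, adjusted p = 0.000255), and for Dnajc25, at 1.06 ± 0.18 (SE, adjusted p = 7.69e-05) with only 36.2 to 84.2 counts.

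Among the J proteins of vesicle traffic, Dnajc5 and Dnajc6 rose at 6 months. Dnajc5 encodes cysteine string protein, which keeps the synaptic vesicle machinery folded, and had normalized counts of 1595, 1641 and 1617 at P18, 1275, 1026 and 794 at P75, 3126, 2845 and 2636 at 6 months, and 1725, 1923 and 1973 at 24 months. P75 was the lowest age and 6 months the highest, and no neighbouring ages overlapped. Dnajc5 fell by 0.67 ± 0.13 (SE, adjusted p = 0.000564), rose by 1.50 ± 0.13 (SE, adjusted p = 2.65e-07), the largest rise of any member at a single step, and fell by 0.61 ± 0.13 (SE, adjusted p = 0.00508). Dnajc6 (auxilin, which recruits Hspa8 to clathrin coats in neurons) was 4647 to 6951 and rose by 0.40 ± 0.088 (SE, adjusted p = 0.00122) at 6 months. The length correction left this rise at 0.25. Dnajc13 (an endosomal J protein) was at 827 ± 77.7 at P18 and 966 ± 35.5 at P75 (SD, n = 3), a log2 difference of 0.23 ± 0.086 (SE, adjusted p = 0.0452). The Dnajc13 call was lost in 16 of 22 alternative analyses, among them the fits without P18 replicates 1 or 2, P75 replicates 1, 2 or 3, 6 months replicates 2 or 3, 24 months replicates 1, 2 or 3, with an adjusted p of up to 0.216. Among 10 neuronal markers 6 rose (60%) and 2 fell (20%) between P75 and 6 months, beside 27.1% and 25.4% of all genes. Their median log2 difference was 0.44, while their summed counts were 207984 to 231200 at P75 and 205279 to 212306 at 6 months. Snap25 held the largest part of these sums, with means of 141430 at P75 and 88328 at 6 months. The part of the neuronal markers in the Dnajc5 change was not tested.

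The mitochondrial chaperones split between P75 and 6 months. Hspd1 (HSP60) and Hspe1 (HSP10) form the barrel and lid of one chaperonin and are read from the shared start region shown above. Hspd1 had normalized counts of 4262, 3965 and 3497 at P18, 3498, 3397 and 3605 at P75, 5551, 5244 and 5061 at 6 months, and 3881, 4402 and 4926 at 24 months. Hspe1 had 4394, 4114 and 3823 at P18, 3570, 3644 and 4101 at P75, 1818, 2142 and 2339 at 6 months, and 2595, 2730 and 3020 at 24 months. At 6 months every Hspd1 sample was above, and every Hspe1 sample below, all samples of the other 3 ages. Hspd1 rose by 0.59 ± 0.098 (SE, adjusted p = 0.000105) and Hspe1 fell by 0.85 ± 0.1 (SE, adjusted p = 5.16e-06). At 24 months Hspe1 rose by 0.41 ± 0.1 (SE, adjusted p = 0.0118) and remained at -0.56 ± 0.1 (SE, adjusted p = 0.000137) against P18, whereas Hspd1 differed from P18 by 0.17 ± 0.098 (SE, adjusted p = 0.14). With the length trend removed, the Hspe1 differences became -0.13 (adjusted p = 0.246) at 6 months, 0.069 (adjusted p = 0.635) at 24 months and -0.24 over the span, the last still called. The rise at 24 months was also lost without 6 months replicate 1 (adjusted p = 0.0674). Hspe1 is short, at 774 exonic bases, and has processed copies elsewhere in the genome with which its reads may be shared, so its level is uncertain.

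Hspa9 (mortalin, the HSP70 that pulls proteins into the matrix) had normalized counts of 3465, 3627 and 3176 at P18, 3117, 2950 and 3219 at P75, 6273, 5470 and 5315 at 6 months, and 4124, 3990 and 4158 at 24 months. Its 6 months samples were far above all others and its 24 months samples above all of P18 and P75. Hspa9 rose by 0.87 ± 0.086 (SE, adjusted p = 9.48e-07), fell by 0.47 ± 0.086 (SE, adjusted p = 0.00243) and ended 0.26 ± 0.086 (SE, adjusted p = 0.0148) above P18. The call against P18 was lost in 2 of 22 alternative analyses (with a length trend removed, with or without a replicate block, with an adjusted p of up to 0.0976). Dnajc19 and Dnajc15, both J proteins of the import motor, went the other way. Dnajc19 had 852, 971 and 814 at P18, 945, 969.8 and 1209 at P75, 421, 502 and 606 at 6 months, and 837, 733 and 725 at 24 months. Dnajc15 had 960.1, 1036 and 1015 at P18, 1126, 1280 and 1437 at P75, 691, 767 and 907 at 6 months, and 1044, 1153 and 1098 at 24 months. In both, 6 months was below every other age. Dnajc19 fell by 1.04 ± 0.13 (SE, adjusted p = 7.32e-06) and rose by 0.60 ± 0.13 (SE, adjusted p = 0.00598). Dnajc15 fell by 0.70 ± 0.11 (SE, adjusted p = 4.61e-05) and rose by 0.49 ± 0.11 (SE, adjusted p = 0.00645). These 4 calls held in all 22 alternative analyses, the length correction included. That correction used unions of annotated exons, 4004 bases for Dnajc19 and 6193 for Dnajc15. These can exceed the transcripts in use, so the correction cannot settle whether length played a part for these 2 genes. Dnajc11, of the cristae-organizing complex, fell by 0.45 ± 0.087 (SE, adjusted p = 0.000718) to P75, and Dnajc30 was -0.64 ± 0.096 (SE, adjusted p = 2.42e-05) over the span. Dnaja3, the matrix J protein, was -0.31 ± 0.079 (SE, adjusted p = 0.00263) over the span.

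**Figure D3:**
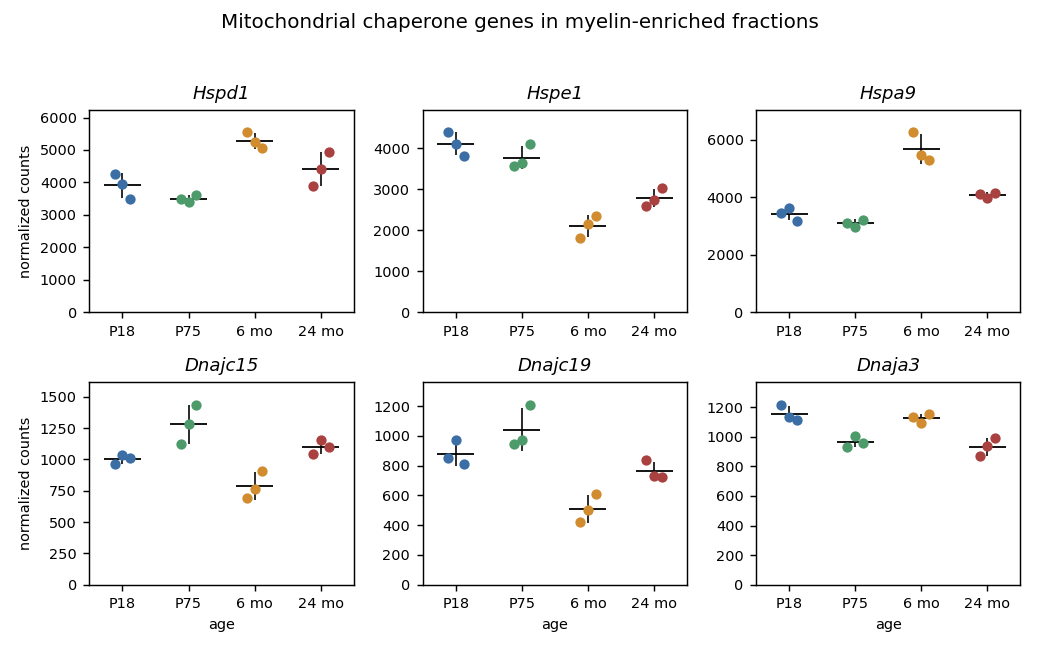
Normalized counts (y axis, from 0) of 6 mitochondrial chaperone genes by age (x axis). Points are the 3 samples of each age, horizontal bars the means and vertical bars the SD. At 6 months Hspd1 and Hspa9 stand above and Hspe1, Dnajc15 and Dnajc19 below the other ages.

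Among 11 other genes of mitochondrial folding and proteolysis, 3 rose (27.3%) and 4 fell (36.4%) between P75 and 6 months, beside 27.1% and 25.4% of all genes tested. The membrane-bound protease Afg3l2 rose by 0.76 ± 0.11 (SE, adjusted p = 2.64e-05) and its relative Yme1l1 by 0.56 ± 0.088 (SE, adjusted p = 7.37e-05). The iron-sulfur cochaperone Hscb fell by 1.15 ± 0.14 (SE, adjusted p = 7.55e-06) and the matrix protease Clpp fell by 0.73 ± 0.099 (SE, adjusted p = 1.8e-05). Hscb was at -0.45 after the length correction, still called. The Clpp call was lost in 2 of 22 alternative analyses (with a length trend removed, with or without a replicate block, with an adjusted p of up to 0.0999). The HSP90 of mitochondria, Trap1, fell by 0.28 ± 0.091 (SE, adjusted p = 0.0447) at 24 months. The Trap1 call was lost in 9 of 22 alternative analyses, among them the fits without P18 replicate 2, 6 months replicates 1 or 2, 24 months replicates 1, 2 or 3, with an adjusted p of up to 0.164. Grpel1, the exchange factor of Hspa9, passed at no step.

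The CCT chaperonin, which folds actin and tubulin, had subunits that moved in both directions over the span. Of its 9 listed genes 7 were tested, and none passed at any of the 3 consecutive steps, where log2 differences ran from -0.20 to 0.23. Of all genes tested, 40.4%, 52.4% and 19.2% were called at these steps. Over the span 1 of the 7 rose (14.3%) and 2 fell (28.6%), beside 32% and 30.5% of all genes. The summed counts were between 35000 and 38838 in the P18 samples, between 34748 and 40511 in those of P75, between 36469 and 37453 in those of 6 months and between 31896 and 36256 in those of 24 months, and every pair of ages overlapped except 6 months and 24 months. Over the whole span Cct4 rose by 0.37 ± 0.1 (SE, adjusted p = 0.00373), with normalized counts of 3111, 2896 and 2566 at P18, 2899, 3111 and 3475 at P75, 3788, 3455 and 3844 at 6 months, and 3314, 3785 and 4010 at 24 months. Cct2 fell by 0.34 ± 0.085 (SE, adjusted p = 0.00215), with 5733, 5525 and 6227 at P18, 5136, 6023 and 5303 at P75, 4825, 5044 and 4849 at 6 months, and 4480, 4540 and 4745 at 24 months. In both the P18 and 24 months samples did not overlap. Cct6a fell by 0.24 ± 0.084 (SE, adjusted p = 0.0196). The Cct6a call was lost in 3 of 22 alternative analyses (without P18 replicate 1, 24 months replicates 1 or 2, with an adjusted p of up to 0.0674). Cct3, Cct5, Cct7 and Cct8 did not pass, with -0.084, -0.09, -0.23 and -0.063 over the span. Cct7 passed over the span without P18 replicate 2 (-0.30, adjusted p = 0.0403) or 24 months replicate 3 (-0.30, adjusted p = 0.0452) and with the length trend removed (-0.27, adjusted p = 0.0296). Cct4 passed at 6 months without P18 replicate 3 (0.23, adjusted p = 0.0365) or P75 replicate 3 (0.30, adjusted p = 0.0319), and Cct8 passed at 24 months against 6 months with the length trend removed (-0.25, adjusted p = 0.0404).

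The remaining subunit, Tcp1 (CCT1), lies outside the naming series of the 81 and was counted with prefoldin, the complex that hands actin and tubulin to CCT. Tcp1 had normalized counts of 3631, 3865 and 3766 at P18, 3972, 3928 and 3454 at P75, 5046, 5065 and 4519 at 6 months, and 3687, 3790 and 4055 at 24 months, so that only 6 months stood apart. It rose by 0.37 ± 0.085 (SE, adjusted p = 0.00179) and fell by 0.34 ± 0.085 (SE, adjusted p = 0.012). The fall was lost in 4 of 22 alternative analyses (without 6 months replicates 1 or 2, 24 months replicates 1 or 2, with an adjusted p of up to 0.0539). Of the 9 genes of this list, 1 rose and 8 fell (88.9%, beside 25.4% of all genes) at 6 months, and all 8 that fell encode prefoldin subunits or CCT cofactors, with Pfdn4 at -1.28 ± 0.12 (SE, adjusted p = 5.8e-07) and Pfdn1 at -0.71 ± 0.11 (SE, adjusted p = 5.08e-05). After the length correction these were -0.81 and -0.22, still called. Corrected values of the other falls are not given here. Of all genes in the shortest class (up to 2113 exonic bases), 1718 of 3708 fell at this step. In the other comparisons the list did not only fall. To P75 2 of its genes rose, Pfdn2 and Pfdn5, and none fell. To 24 months 3 rose and 1 fell, and over the span 1 rose and 5 fell. Rises were 22.2%, 33.3% and 11.1% of the list, beside 21.7%, 10.8% and 32% of all genes. Falls were 0%, 11.1% and 55.6%, beside 18.7%, 8.34% and 30.5%. Pfdn5 rose most to P75 (log2 difference 1.15) and was the gene that stood higher over the span (1.01).

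Small heat shock genes were low, and most that were tested fell at 6 months. Of 8 listed 6 were tested: 1 fell to P75, 4 fell to 6 months, 2 rose to 24 months, and 4 were lower at 24 months than at P18, with none higher. Beside these stand falls of 18.7%, 25.4% and 30.5% of all genes to P75, to 6 months and over the span. Rises to 24 months were 10.8% of all genes. With the length correction Hspb2 was higher over the span (0.77, adjusted p = 0.0361, or 0.0459 with a replicate block). The 2 rises to 24 months became 0 with the length correction and without 6 months replicate 1 or 24 months replicate 3, and 1 without 6 months replicate 3 or 24 months replicates 1 or 2. Summed counts were between 1690 and 1856 in the P18 samples, between 1363 and 1568 in those of P75, between 760.4 and 952.4 in those of 6 months and between 1069 and 1157 in those of 24 months, with no overlap between any 2 ages. Hspb8, which works with Bag3 in the disposal of misfolded protein, had normalized counts of 781, 680.2 and 602 at P18, 536, 707 and 616 at P75, 327, 421 and 391 at 6 months, and 497, 492 and 499.9 at 24 months. Its 6 months samples were the lowest and its 24 months samples lay close together between them and P75. Hspb8 fell by 0.70 ± 0.12 (SE, adjusted p = 0.00016) at 6 months and was -0.46 ± 0.12 (SE, adjusted p = 0.00342) over the span. A rise of 0.39 at 24 months was less firm. The Hspb8 call was lost in 7 of 22 alternative analyses (without 6 months replicates 1 or 3, 24 months replicates 1, 2 or 3 and with a length trend removed, with or without a replicate block, with an adjusted p of up to 0.158).

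Hspb1 (HSP25, the inducible small heat shock protein) had normalized counts of 215, 154 and 213 at P18, 125, 161 and 161 at P75, 76.4, 110.1 and 81.7 at 6 months, and 135, 123 and 198 at 24 months. It fell by 0.74 ± 0.19 (SE, adjusted p = 0.0044) at 6 months and rose by 0.75 ± 0.19 (SE, adjusted p = 0.0156) at 24 months. The fall was lost in 2 of 22 alternative analyses (with a length trend removed, with or without a replicate block, with an adjusted p of up to 0.411). The rise was lost in 4 of 22 alternative analyses (without 6 months replicate 1, 24 months replicate 3 and with a length trend removed, with or without a replicate block, with an adjusted p of up to 0.103). Hspb6 (HSP20) had 318, 319 and 361 at P18, 203, 203 and 147 at P75, 130, 145 and 161 at 6 months, and 156, 123 and 112 at 24 months. P18 was above every later sample, and Hspb6 fell by 0.86 ± 0.15 (SE, adjusted p = 0.000324) to P75 and fell by 1.35 ± 0.15 (SE, adjusted p = 9.69e-07) over the span. Hspb11, an intraflagellar transport protein in spite of its name, had 417, 432 and 336 at P18, 385, 351 and 469.8 at P75, 160.1, 213 and 227 at 6 months, and 284, 249.8 and 232 at 24 months and fell by 1.01 ± 0.15 (SE, adjusted p = 3.46e-05) at 6 months. Hspb3 had 98.6, 91.5 and 211 at P18, 87.2, 112 and 113 at P75, 50.4, 44.4 and 34.1 at 6 months, and 60.4, 57.3 and 38 at 24 months and fell by 1.27 ± 0.27 (SE, adjusted p = 0.000997) at that step. Neither of the last 2 falls passed with the length trend removed, at -0.17 (adjusted p = 0.21) for Hspb11 and -0.55 (adjusted p = 0.118) for Hspb3. Hspb2 stayed at or below 24.1. Of 5 crystallin and other heat shock genes outside the 81, 4 were tested, and Cryab alone passed in any comparison. Cryab, the alpha B crystallin that oligodendrocytes express strongly, had 7470, 7805 and 3523 at P18, 5114, 5769 and 5996 at P75, 3551, 4692 and 4124 at 6 months, and 3276, 3996 and 4791 at 24 months. It was -0.57 ± 0.22 (SE, adjusted p = 0.0346) over the span. The Cryab call was lost in 7 of 22 alternative analyses (without P18 replicates 1 or 2, 24 months replicates 1 or 2, with no filter on low values and with a length trend removed, with or without a replicate block, with an adjusted p of up to 0.177).

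**Figure D4:**
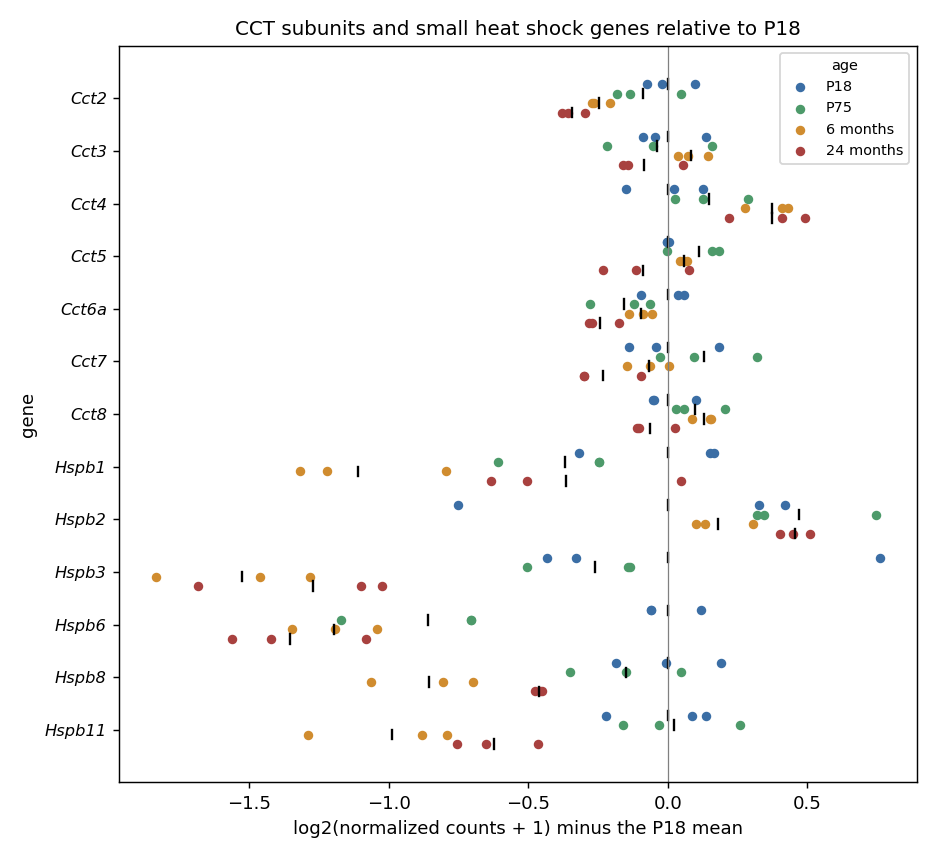
CCT subunits (upper 7 rows) and small heat shock genes (lower 6 rows) in each sample, as log2(normalized count + 1) minus the P18 mean of the gene (x axis). Points are samples, coloured by age, and black bars are age means. Age means of the CCT rows lie between -0.34 and 0.37, while Hspb6 lies left of 0 at all later ages and Hspb1, Hspb3, Hspb8 and Hspb11 lie left at 6 months.

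Transcript length moved with the change between P75 and 6 months. Over all genes with an annotated length, the median log2 difference at that step was -0.32 in the shortest class (up to 2113 exonic bases), 0.067 in the middle class and 0.15 in the longest class (above 5006 bases). The tested chaperone genes followed the same order: of 18 short ones none rose and 12 fell (median -0.37), of 42 of middle length 16 rose and 4 fell (0.24), and of 12 long ones 10 rose and 1 fell (0.44). Over all genes, 405 rose and 1718 fell of 3708 in the shortest class, 2277 rose and 1487 fell of 7415 in the middle class, and 1344 rose and 549 fell of 3708 in the longest class. The shortest and longest classes of the chaperone genes hold fewer than 20 genes each. With each sample's trend against length removed, the 17 falls at 6 months became 9. Of the 4 small heat shock genes that fell at that step, Hspb8 still passed and Hspb1, Hspb3 and Hspb11 did not. The 11 ER genes that rose at 6 months still numbered 11. Lengths are the union of annotated exons and can exceed that of the transcript in use.

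**Figure D5:**
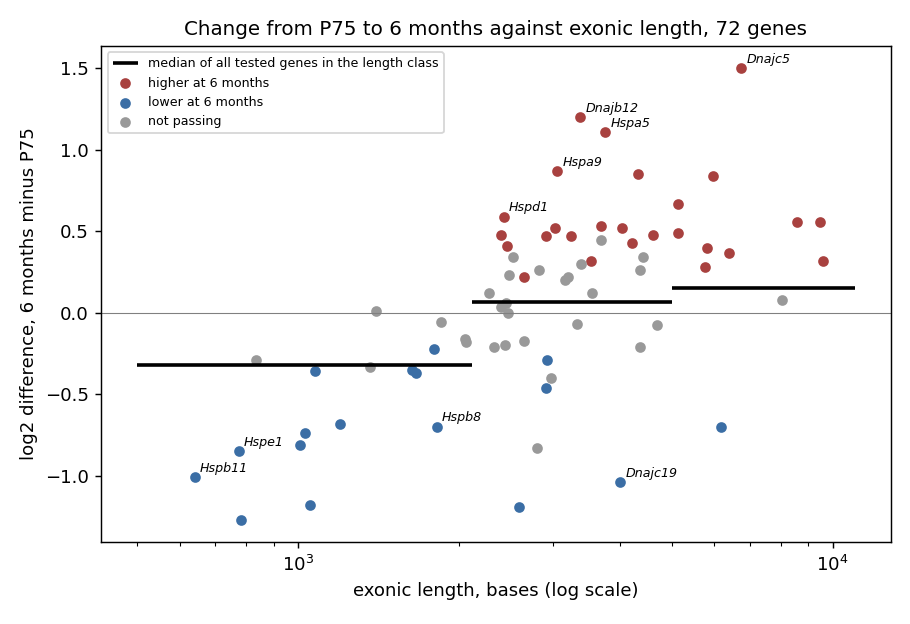
Log2 difference at 6 months against P75 (y axis) of the 72 tested genes against exonic length in bases (x axis, log scale). Red points rose, blue points fell and grey points did not pass, and black lines are medians of all tested genes in 3 length classes (-0.32, 0.067 and 0.15). No gene in the shortest class rose, and Dnajc19 and Dnajc15 lie below the median line of their class by annotated length.

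Cytosolic co-chaperones were counted from a list of 27 outside the 81. To P75 1 rose and 10 fell, to 6 months 7 rose and 8 fell, to 24 months none rose and 4 fell, and over the span 4 rose and 9 fell. Rises were 3.7%, 25.9%, 0% and 14.8% of the list, beside 21.7%, 27.1%, 10.8% and 32% of all genes, and falls 37%, 29.6%, 14.8% and 33.3%, beside 18.7%, 25.4%, 8.34% and 30.5%. At 6 months both shares were thus near those of all genes. Sgtb, a small glutamine-rich adaptor of HSP70, had normalized counts of 156, 207 and 197 at P18, 198, 141 and 149 at P75, 787, 592 and 570.2 at 6 months, and 321, 294 and 302 at 24 months. Every 6 months sample was above every other sample, and Sgtb rose by 1.99 ± 0.15 (SE, adjusted p = 9.45e-08) and fell by 1.07 ± 0.15 (SE, adjusted p = 0.000499) at 24 months. St13 (Hip, which stabilizes ADP-bound HSP70) differed at all 3 steps, by -0.46 ± 0.13 (SE, adjusted p = 0.00764), 1.10 ± 0.13 (SE, adjusted p = 3.76e-06) and -0.50 ± 0.13 (SE, adjusted p = 0.0127). The last of these calls was lost in 2 of 22 alternative analyses (without 6 months replicate 1, 24 months replicate 1, with an adjusted p of up to 0.0627). Stub1, the ubiquitin ligase CHIP, fell by 0.57 ± 0.12 (SE, adjusted p = 0.000966) and rose by 0.76 ± 0.12 (SE, adjusted p = 5.1e-05). Fkbp5, a glucocorticoid-induced HSP90 cochaperone, fell by 1.06 ± 0.16 (SE, adjusted p = 7.97e-05) to P75 and was -1.18 ± 0.16 (SE, adjusted p = 7.22e-06) over the span.

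Of 9 listed heat shock factors and their regulators, 1 rose and 1 fell to P75, 1 rose and 4 fell to 6 months, none rose and 1 fell to 24 months, and 1 rose and 2 fell over the span. At P75 this is 11.1% in each direction, below all genes (21.7% and 18.7%), and at 6 months 11.1% rose and 44.4% fell, beside 27.1% and 25.4%. To 24 months 0% rose and 11.1% fell, beside 10.8% and 8.34%. Over the span 11.1% rose and 22.2% fell, both below all genes (32% and 30.5%). Hsf1, the factor of the heat shock response, had normalized counts of 684, 593 and 585 at P18, 492, 563 and 461 at P75, 539.5, 520.1 and 551 at 6 months, and 426, 545 and 623 at 24 months and passed at no step. Its 3 consecutive log2 differences were -0.30, 0.092 and -0.032. Hsf2 passed at no step either. Hsf4 rose by 0.99 ± 0.14 (SE, adjusted p = 6.5e-05) to P75 and was 1.48 ± 0.14 (SE, adjusted p = 1.8e-07) higher over the span. Hsbp1, which binds heat shock factor 1 and restrains it, fell by 0.58 ± 0.092 (SE, adjusted p = 0.000144) to P75 and fell by 0.78 ± 0.092 (SE, adjusted p = 4.78e-06) to 6 months. The length correction left the latter fall at -0.38, still called. Vcp, the segregase that extracts ubiquitinated proteins, rose by 0.44 ± 0.098 (SE, adjusted p = 0.00126) at 6 months and fell by 0.42 ± 0.098 (SE, adjusted p = 0.0089) at 24 months.

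The genes whose log2 values followed 3 members most closely over the 12 samples were picked from all tested genes by Pearson's r, as a description of shared libraries and ages. Hspa8 was followed most closely by Nop2 (r = 0.928), Dpp9 (0.905), Zbtb7a (0.892), Smarca4 (0.892) and Smad3 (0.891), and among the members by Hsp90ab1 (0.888). For Hspa5 these were Entpd1 (0.981), P4ha1 (0.972), Calr (0.971), Pdia6 (0.966) and Lipa (0.963), with Dnajb11 (0.960) as the closest member. Hspb8 had Sncg (0.975), 1810020D17Rik (0.968), Calml4 (0.966), Ngdn (0.966) and Dbf4 (0.965), and Hspe1 (0.947) among the members.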

How the data were processed

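RNA-seq of 12 myelin-enriched brain fractions was used. Each deposited value is a signal, a gene's read count that the authors divided by the sample's size factor, made with TopHat, HTSeq and DESeq on the mouse build mm9 per the submitters' processing notes. Versions, strand setting, RNA extraction, library construction and batches are not given in the sources used here, so antisense reads cannot be told apart and batches could not be compared. In all 12 columns 100% of values were whole multiples of 1 step within 0.0061, which gave the reads per sample. No replicates were duplicates (chi-square per gene between 9.001 and 126.4).

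Genes with a value of at least 10 in at least 3 samples (14987) were tested as log2(value + 1) with limma 3.58.1 (R 4.3.3, mean-variance trend, all 12 samples in 4 ages, two-sided, Benjamini-Hochberg adjustment over all genes tested, threshold 0.05). The pseudocount understates differences of low genes. Scripts were tested on simulated data. Alternatives were pseudocounts of 4 and 0.25, no filter, TMM, quantile normalization, edgeR 4.0.16 and DESeq2 1.42.0 on the recovered reads, a replicate block and leaving out each sample, and, chosen after seeing the data, removal of each sample's trend with exonic length (GENCODE M21) and a total without Mbp. Members, classes and gene lists were chosen with earlier results of these data known. A fixed set was named, with up to 6 rises and 6 falls per comparison among members that passed, averaged at least 50 and did not overlap, and up to 4 genes per list and comparison by lowest adjusted p. Other named genes were chosen after their values were seen.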

Additional observations from a re-analysis of the deposited data

How the results depend on the processing

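The numbers of tested chaperone genes called stayed within 1.5 times of the reported ones under every alternative that kept all samples, except that the 17 lower at 6 months than at P75 became 9 with the length trend removed, with or without a replicate block. Leaving out 1 sample gave 6 to 10 higher and 7 to 13 lower at P75, 20 to 31 and 15 to 21 at 6 months, 3 to 11 and 4 to 11 at 24 months against 6 months, 15 to 23 and 20 to 25 at 24 months against P18, and 48 to 57 differing at any age. Without Mbp in the total, the summed share was 1.29% at P18 and 1.22% at P75, the reverse of the order with Mbp (1.1% and 1.15%). Without P18 replicate 3, Dnajc14 reversed to -0.26 (limma adjusted p = 0.0328) at P75 against P18 and to -0.25 (0.0286) at 24 months against P18, from 0.011 and 0.023, with values of up to 0.19 and 0.20 without P18 replicate 1. Dnajc4 reversed from -0.36 to 0.15 (adjusted p = 0.207, 0.243 with a replicate block) at 6 months against P75 with the length trend removed, and Ddit3 from -0.61 to 0.028 in the same comparison, with or without the block. Apart from the length trend and left-out samples, the causes were not tested. Same-numbered samples did not deviate together: 3 of 18 pairs had r over 0.1 (median -0.0435), so the numbers are not treated as pairs. A fit with a replicate block gave 8 higher and 11 lower, 24 and 17, 6 and 6, and 20 and 22 in the 4 comparisons, and 53 at any age. Quantile normalization moved the median log2 difference of all genes at 24 months against P18 from -0.0051 to -0.11. With 3 samples per age, calls near the threshold turned on single libraries.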
